A study of Mus musculus with 12 samples.

Results

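The 10 genes described here encode C-type lectin receptors that myeloid cells carry on their surface: *Clec4n*, *Clec4d*, *Clec4e*, *Clec5a* and *Clec7a*, which are known as activating receptors, *Clec4a1*, *Clec4a2*, *Clec4a3* and *Clec12a* of the inhibitory receptors and their close relatives, and *Clec10a*, a receptor for galactose-type sugars. They were chosen by name, after *Clec4n* had been seen to have one of the largest rises of all genes in bleomycin-treated wild-type samples. All 10 were among the 40760 genes of the deposited table, and all 10 were among the 17418 genes left by the filter on low counts. Because the difference between the *WT* bleo and the *WT* vehicle libraries led to the choice, the values of that comparison are given for all 10 genes as a description with no test.

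Myeloid C-type lectins read sugars and lipids on microbes and on damaged or dying cells. The activating ones signal through an immunoreceptor tyrosine-based activation motif, which is either in their own tail, as in *Clec7a* (Dectin-1), or in an adaptor such as the Fc receptor gamma chain for *Clec4n* (Dectin-2), *Clec4d* (MCL) and *Clec4e* (Mincle), or DAP12 for *Clec5a* (MDL-1), and reach the kinase *Syk* and the scaffold *Card9*. The inhibitory ones, such as *Clec4a2* (DCIR) and *Clec12a* (MICL), recruit the phosphatases SHP-1 and SHIP-1. In the lung these receptors are known from macrophages, monocytes, dendritic cells and neutrophils, and they are not markers of fibroblasts.

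The libraries came from *Pdgfra*+ (CD140a+) cells sorted by flow cytometry from the lungs of male mice, which in the study were of C57BL/6 background and 8 to 12 weeks old where nothing else was stated. There were 12 libraries, 3 for each combination of genotype (*WT* or *Pear1*-/-) and treatment (vehicle or bleo). *Pear1*-/- mice carry a knockout-first allele in all cells, in which a gene-trap cassette in an intron stops the transcript. Bleo, an agent that injures the lung and leads to fibrosis, was aerosolized into the trachea at 1.5 or 2 µg per g of body weight with a readout on day 21 in the study's model, but which dose, which day and how many mice stood behind each of these libraries were not given in the sources used here. Nothing in the labels said that replicates came from separate animals, so p-values measure the spread between these libraries, which may be technical. Each gene's reads were counted on GRCm38, with 6702948 to 10447101 counts per library, and normalized counts are those counts divided by the size factor of the library. The lowest count of a member was 11 and the highest 7953, above the floor of 3 counts, which corresponded to 0.287 to 0.448 CPM (counts scaled to the library total) and covers counting error only.

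Facts about the libraries limit the comparisons. *Pear1* itself did not fall in the vehicle libraries labelled *Pear1*-/- (log2 difference -0.08, SE 0.077, edgeR adjusted p = 0.490) and was 0.48 higher on the log2 scale in labelled *Pear1*-/- bleo than in *WT* bleo (edgeR adjusted p = 7.54e-05), and one count per gene does not separate the transcript before the cassette from that behind it, so genotype below means the label. *WT* vehicle replicate 2 stood apart from replicates 1 and 3, with a chi-square per degree of freedom of 21.2 and 21.8 against them, while replicates 1 and 3 gave 1.58 against each other. Against the 3 libraries labelled *Pear1*-/- vehicle, replicate 2 gave 1.73 to 2.67, and whether it carries the right label was not tested. Its group is taken from the label throughout. Where a log2 difference of a member printed below contains it, the value is given with and without it. The *Pear1* difference between the vehicle groups is given with it only. Fits without it keep 2 *WT* vehicle libraries, and their p-values leave out the spread that it adds. *Pear1*-/- vehicle replicate 3 was apart from replicates 1 and 2 to a smaller degree, at 4.31 and 4.82 against 1.44 between those. Replicates within either bleo group gave 1.35 to 1.49. The label of mesenchymal cells was checked against markers. A list of 11 fibroblast genes had a summed normalized count between 113120 and 299550 over the 12 libraries, and 12 pan-leukocyte genes, *Ptprc* (CD45) among them, had a sum between 20138 and 62735, so transcripts of leukocytes were counted in every library.

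*Clec4n*, *Clec4d* and *Clec4e* lie side by side on chromosome 6, and with *Clec4a1*, *Clec4a2* and *Clec4a3* they fall within 368.0 kb (GRCm38, chromosome 6, 122921848 to 123289870). Between *Clec4n* (123229843 to 123247021, plus strand) and *Clec4d* (123262111 to 123275265, plus strand) there are 15089 bases, and between *Clec4d* and *Clec4e* (123281789 to 123289870, minus strand) 6523 bases. *Clec5a*, *Clec7a* and *Clec12a* are elsewhere on chromosome 6 and *Clec10a* on chromosome 11. No member shared an exon base with another annotated gene, but *Clec4a1*, *Clec4a2* and *Clec4a3* are near copies of each other and of *Clec4a4*, *Clec4b1* and *Clec4b2*, and *Clec10a* of *Mgl2*, so how the authors' counting split reads among them is uncertain. *Clec7a* is typed as a polymorphic pseudogene in the annotation of this build.

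RefSeq promoters were found for 8 of the 10 members. The promoters shown are those of *Clec4d* and *Clec4e*, whose levels went a different way from those of the other members, and, for contrast, of *Clec4a1*, at the other end of the same cluster, and of *Clec12a* and *Clec7a*. Each is the 250 bases before the transcript start, 5' to 3' on the gene's strand (GRCm38.p6; *Clec4d* chr6:123261857-123262106, *Clec4e* chr6:123289872-123290121, *Clec4a1* chr6:122921598-122921847, *Clec12a* chr6:129349994-129350243, *Clec7a* chr6:129472780-129473029). Capitals mark GAGGAA, a purine-rich core of the kind bound by PU.1, and TTNNGCAA, the core of the kind bound by C/EBP proteins, on either strand, so that GAGGAA also appears as TTCCTC. Both are factors of the myeloid lineage.
*Clec4d* promoter: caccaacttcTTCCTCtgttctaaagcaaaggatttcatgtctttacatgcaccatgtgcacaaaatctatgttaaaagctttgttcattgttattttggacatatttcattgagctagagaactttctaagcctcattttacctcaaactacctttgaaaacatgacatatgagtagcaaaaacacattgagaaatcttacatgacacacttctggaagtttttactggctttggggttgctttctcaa
*Clec4e* promoter: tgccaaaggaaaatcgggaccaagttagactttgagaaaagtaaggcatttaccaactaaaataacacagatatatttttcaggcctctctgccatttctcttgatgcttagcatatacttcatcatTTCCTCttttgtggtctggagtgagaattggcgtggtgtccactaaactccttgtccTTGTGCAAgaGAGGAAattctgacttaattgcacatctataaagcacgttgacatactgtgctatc
*Clec4a1* promoter: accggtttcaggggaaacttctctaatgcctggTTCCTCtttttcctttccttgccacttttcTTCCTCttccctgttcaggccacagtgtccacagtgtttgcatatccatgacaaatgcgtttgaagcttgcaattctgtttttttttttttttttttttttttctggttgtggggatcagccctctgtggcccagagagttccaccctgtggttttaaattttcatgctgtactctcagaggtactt
*Clec12a* promoter: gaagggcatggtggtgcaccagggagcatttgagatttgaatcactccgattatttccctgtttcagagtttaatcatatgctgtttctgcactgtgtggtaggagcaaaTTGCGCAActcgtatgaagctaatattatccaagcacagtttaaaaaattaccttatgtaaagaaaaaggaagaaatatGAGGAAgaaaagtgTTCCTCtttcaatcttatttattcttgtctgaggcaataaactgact
*Clec7a* promoter: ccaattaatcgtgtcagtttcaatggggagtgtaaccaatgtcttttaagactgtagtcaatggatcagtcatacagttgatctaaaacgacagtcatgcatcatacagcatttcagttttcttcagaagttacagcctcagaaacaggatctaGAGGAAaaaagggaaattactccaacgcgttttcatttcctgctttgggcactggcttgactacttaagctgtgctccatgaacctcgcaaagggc

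The 8 members had 10 promoter windows, since *Clec4a3* and *Clec7a* had a pair each. GAGGAA was in 8 of the 10 windows, all but that of *Clec4a2* and one of *Clec4a3*, against 23.3% of the 32851 RefSeq promoters of the same length. Its nearest match lay 240 bases before the start in *Clec4d*, 56 in *Clec4e*, 187 in *Clec4a1*, 47 in *Clec12a* and 96 in *Clec7a*. TTNNGCAA was in 2 of the 10, *Clec4e* (66 bases before the start) and *Clec12a* (140 bases before), against 9.6% of all promoters, and the motifs did not overlap each other. Both motifs were chosen after the sequences had been seen, and a match is a description of letters, not a binding site.

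Per exon length, the order of the members differed between vehicle and bleo. In labelled *Pear1*-/- vehicle, *Clec4d* had the highest level, with 59.8 ± 1.64 RPKM (reads scaled to exon length and library total, SD, n = 3). It stood above *Clec4e* with 36.7 ± 2.45 and *Clec7a* with 18.8 ± 1.29, and these 3 did not overlap. The order rests on the lengths of all annotated exons joined, 1599 bases for *Clec4d* and 4965 for *Clec4e*. By mean normalized count *Clec4e* was the higher in that group, at 1703 against 894. In *WT* vehicle the same 3 genes stood at the top but overlapped, with *Clec4d* at 37.1 ± 19.1 RPKM, *Clec7a* at 29.8 ± 7.72 and *Clec4e* at 24.0 ± 10.6. In *WT* bleo the order was *Clec7a* (309 ± 7.50 RPKM), *Clec4n* (257 ± 12.9) and *Clec4a3* (159 ± 7.19), with *Clec4e* seventh and *Clec4d* eighth, and no neighbours in that order overlapped. In labelled *Pear1*-/- bleo, *Clec7a* (150.4 ± 1.66 RPKM) and *Clec4n* (149 ± 1.59) overlapped and stood above *Clec4a3* (50.1 ± 3.24) and *Clec4e* (38.0 ± 1.08). *Clec10a* was last in all 4 groups, between 0.624 ± 0.0827 RPKM in *WT* vehicle and 7.23 ± 0.483 in *WT* bleo.

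**Figure D1:**
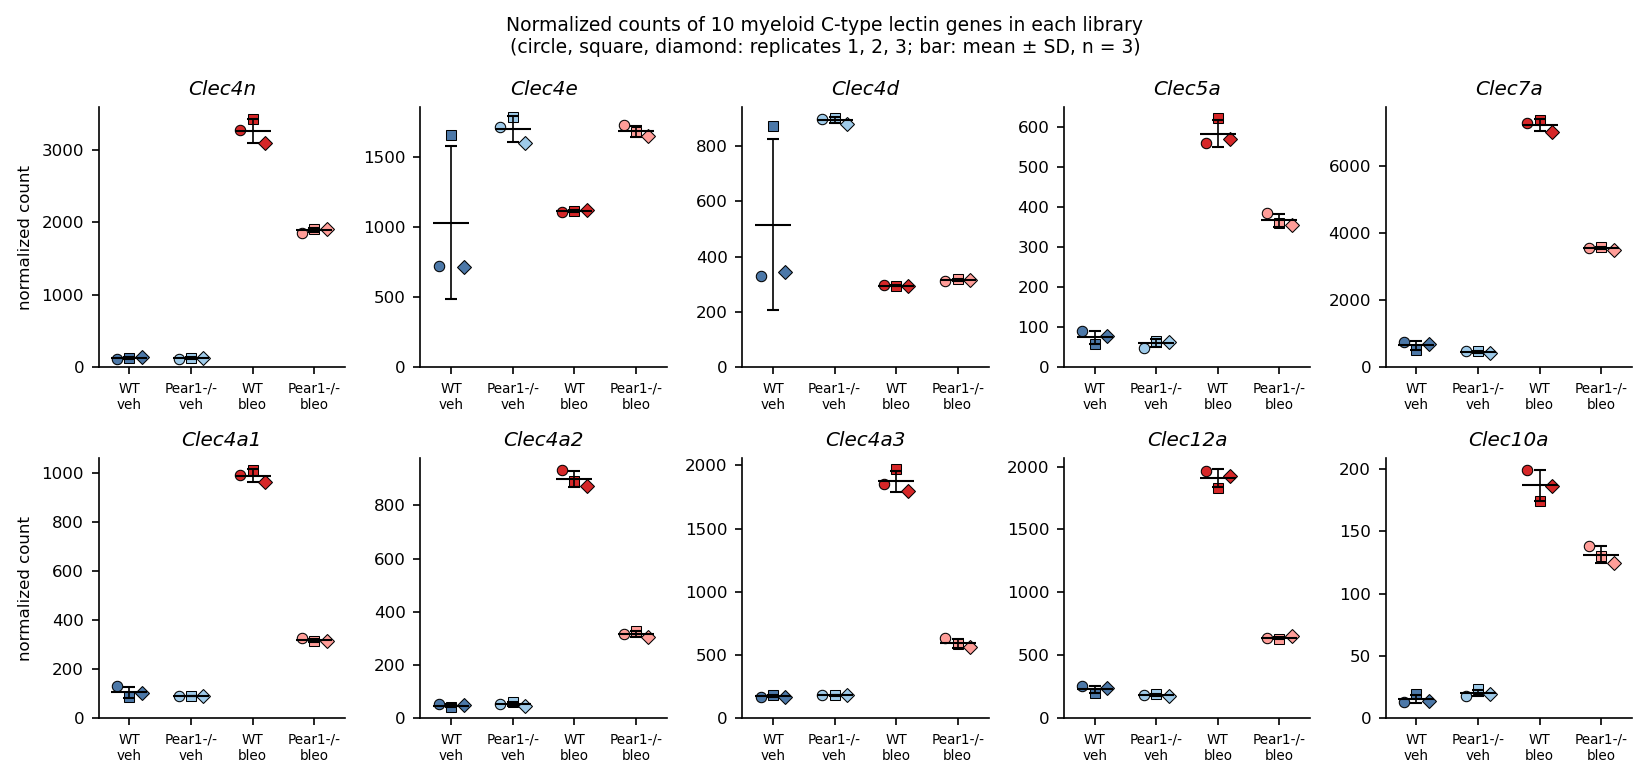
Normalized count (y axis, from 0) of each of the 10 genes in the 12 libraries, by group; the bar is the mean ± SD of 3 libraries. For 8 genes both bleo groups lie above both vehicle groups, whereas *Clec4d* is highest in labelled *Pear1*-/- vehicle and *WT* vehicle replicate 2, and the *WT* vehicle libraries of *Clec4d* and *Clec4e* are split by replicate 2.

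The comparison of labelled *Pear1*-/- bleo with labelled *Pear1*-/- vehicle asks what went with bleo in libraries outside the comparison that led to the choice, although the genes were chosen with earlier results of the whole series known. Of the 10 members 8 rose and 1 fell, at a fold change above 2 and an adjusted p under 0.05 in edgeR's quasi-likelihood test. Over all 17418 genes tested, 8.37% rose and 19.3% fell by the same criteria. The median log2 fold change of the 10 was 2.19, and that of all genes -0.05. The libraries did not overlap for these 9, where 33.2% of all genes were higher and 37.8% lower without overlap. The member that fell was *Clec4d*, and *Clec4e* was not called. Without *Pear1*-/- vehicle replicate 3 the number of members called was 9 as well.

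Among the activating receptors, *Clec4n* (ENSMUSG00000023349), which binds fungal mannans, had 120, 134 and 131 normalized counts in labelled *Pear1*-/- vehicle and 1855, 1903 and 1910 in labelled *Pear1*-/- bleo. All bleo libraries were far above all vehicle libraries, and the rise was 14.7-fold (log2 3.88, SE 0.084, edgeR adjusted p = 3.73e-17), the 83rd highest fold change of the 17418 genes. *Clec7a* (ENSMUSG00000079293), the receptor for beta-glucans, had 475, 481 and 434 normalized counts in vehicle and 3557, 3579 and 3517 in bleo. It rose 7.66-fold (log2 2.94, SE 0.11, edgeR adjusted p = 7.85e-14), and the groups did not overlap. *Clec5a* (ENSMUSG00000029915), which pairs with DAP12, went from 49.2, 66.8 and 64.4 to 386, 362 and 355 normalized counts. The groups were again apart, with a 6.11-fold rise (log2 2.62, SE 0.13, edgeR adjusted p = 3.15e-12).

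*Clec4d* (ENSMUSG00000030144), which forms a pair with Mincle, moved the opposite way. It had 900, 903 and 881 normalized counts in labelled *Pear1*-/- vehicle and 312, 320 and 316 in labelled *Pear1*-/- bleo. All bleo libraries were below all vehicle libraries, 2.83-fold on average (log2 -1.50, SE 0.33, edgeR adjusted p = 0.00369). Its next neighbour on the chromosome, *Clec4e* (ENSMUSG00000030142), a receptor for mycobacterial glycolipid and for the nuclear protein SAP130 of dead cells, had 1717, 1788 and 1604 normalized counts in vehicle and 1731, 1680 and 1654 in bleo. These libraries overlapped, and the log2 difference was -0.01 (SE 0.28, edgeR adjusted p = 0.981), with signs that turned under several settings. *WT* vehicle replicate 2 enters the shared estimate of the spread of these genes. Without that library, an alternative added after the data were seen, *Clec4d* kept its log2 difference of -1.50 (edgeR adjusted p = 1.72e-23) and *Clec4e* differed by -0.01 (edgeR adjusted p = 0.884).

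The inhibitory receptors and their relatives rose by less than *Clec4n*, as did *Clec7a*, *Clec5a* and *Clec10a*. *Clec4a2* (ENSMUSG00000030148), which carries an inhibitory motif in its tail, went from 52.1, 62.2 and 46.9 to 317, 327 and 307 normalized counts, a 5.90-fold rise (log2 2.56, SE 0.11, edgeR adjusted p = 2.75e-13). Its relatives *Clec4a1* and *Clec4a3* rose 3.52-fold and 3.25-fold (edgeR adjusted p = 5.39e-11 and 7.51e-13). *Clec12a* (ENSMUSG00000053063), a receptor for uric acid crystals, went from 187, 192 and 181 to 636, 628 and 650.1 normalized counts, a 3.42-fold rise (log2 1.78, SE 0.085, edgeR adjusted p = 1.64e-12). In each of these 4 genes the lowest bleo library was above the highest vehicle library. *Clec10a* (ENSMUSG00000000318), which marks macrophages and dendritic cells that take up galactose-bearing ligands, had the lowest counts of the set, 17.99, 23.2 and 19.6 normalized counts in vehicle and 139, 130 and 125 in bleo. It rose 6.46-fold (log2 2.69, SE 0.17, edgeR adjusted p = 7.91e-11).

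Markers of other cell types moved beside these changes. From labelled *Pear1*-/- vehicle to labelled *Pear1*-/- bleo, 11 of 15 macrophage and monocyte genes rose and 1 fell, and their summed normalized count went from between 24756 and 26562 to between 70886 and 73412. Of 11 neutrophil genes, 10 were tested and 8 fell, with a median log2 difference of -3.15 and a sum that went from between 16626 and 20506 to between 2674 and 2759. None of the 12 pan-leukocyte genes was called in this comparison by edgeR's criteria, and their summed normalized count went from between 28510 and 29437 to between 33452 and 33863. Defining macrophage markers rose, such as *Csf1r*, the receptor of the macrophage growth factor (log2 1.74, edgeR adjusted p = 3.17e-14), and *Adgre1*, which encodes F4/80 (log2 1.49, edgeR adjusted p = 1.76e-12). A defining neutrophil marker, *S100a8*, fell by 3.15 on the log2 scale (edgeR adjusted p = 0.000303). Fewer cells of a type and less RNA per cell cannot be told apart in these bulk libraries, and the part of these cell types in the changes of the members was not tested.

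As a description of the comparison that led to the choice, *Clec4n* had 118, 123 and 140 normalized counts in *WT* vehicle and 3262, 3416 and 3084 in *WT* bleo. This is 25.7-fold (log2 4.69, and 4.66 without replicate 2 of *WT* vehicle), the 6th highest fold change of the 17418 genes. The other 7 genes that rose in the labelled *Pear1*-/- libraries were higher in *WT* bleo as well, between 7.74-fold for *Clec5a* and 18.7-fold for *Clec4a2* (log2 2.97 and 4.24, and 2.80 and 4.14 without replicate 2), with no overlap between the libraries, as for 32.0% of all genes. *Clec4d* had 331, 874 and 343 normalized counts in *WT* vehicle and 297, 296 and 295 in *WT* bleo, so replicate 2 made most of its log2 difference of -0.80, which was -0.18 without that library. *Clec4e* had 722, 1664 and 717 normalized counts in *WT* vehicle and 1107, 1115 and 1123 in *WT* bleo. The bleo libraries lay between replicate 2 and the other 2 vehicle libraries, and the log2 difference of *Clec4e* was 0.12 with all libraries and 0.64 without replicate 2. Since this comparison led to the choice, nothing is read from the number of members past the limits used above, which was 8 of the 10 beside all genes, of which 10.5% were higher, 23.3% lower and 33.8% either. Without overlap, 36.7% of all genes were lower, *Clec4d* among them. The differences in the *WT* and in the labelled *Pear1*-/- libraries share no library.

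**Figure D2:**
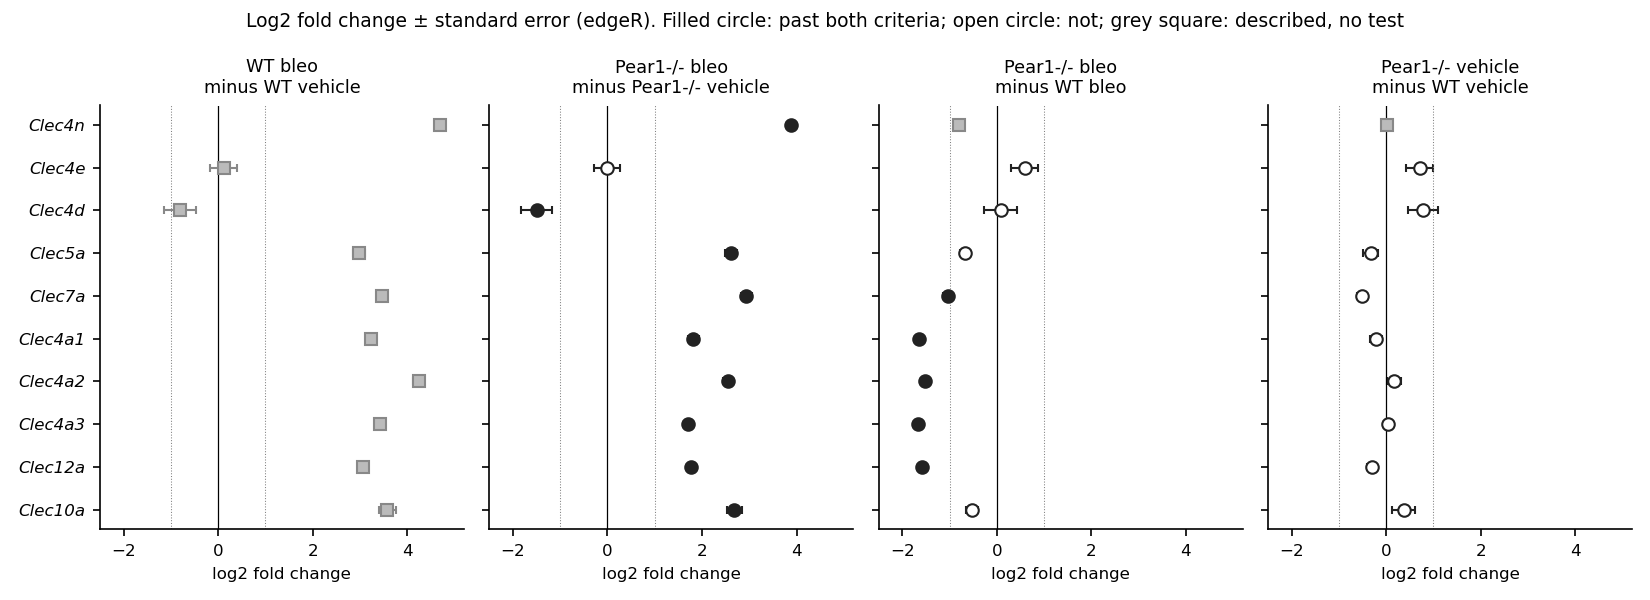
Log2 fold change (x axis, dotted lines at a fold change of 2) ± standard error of each gene in 4 comparisons; filled circles passed both criteria, open circles did not, and grey squares are described without a test. In labelled *Pear1*-/- bleo against labelled *Pear1*-/- vehicle 8 genes are to the right and *Clec4d* to the left, and in labelled *Pear1*-/- bleo against *WT* bleo 5 genes are past the left line.

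Between the bleo groups, the question is whether the label *Pear1*-/- went with a different level after bleo. The *WT* bleo libraries had a part in choosing *Clec4n*, which is therefore described only: its 1855 to 1910 normalized counts in labelled *Pear1*-/- bleo were below the 3084 to 3416 in *WT* bleo (log2 -0.80). Of the other 9 members 5 were lower in labelled *Pear1*-/- bleo by both criteria and none was higher, where 8.80% of all genes were lower, 6.22% higher and 15.0% either. With no criterion on fold, 7 of the 9 were lower, and so were 24.0% of all genes. The libraries of all 10 members were apart, *Clec4d* and *Clec4e* higher and the rest lower in labelled *Pear1*-/- bleo, where 31.3% of all genes were higher and 31.6% lower without overlap.

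The genes of the DCIR group and *Clec12a* had the widest gaps. *Clec4a3* had 1850, 1968 and 1800 normalized counts in *WT* bleo and 632, 591 and 561 in labelled *Pear1*-/- bleo, 3.15-fold lower (log2 -1.67, SE 0.071, edgeR adjusted p = 1.09e-12). *Clec4a1* went from 990.1, 1013 and 961 to 326, 316 and 314 (log2 -1.64, edgeR adjusted p = 4.59e-11), and *Clec4a2* from 933, 891 and 873 to 317, 327 and 307 (log2 -1.52, edgeR adjusted p = 4.12e-11). *Clec12a* had 1965, 1827 and 1927 normalized counts in *WT* bleo against 636, 628 and 650.1 (log2 -1.59, SE 0.077, edgeR adjusted p = 6.11e-12). In all 4 genes the groups were far apart relative to the spread within them.

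The activating receptors and *Clec10a* differed less. *Clec7a* had 7304, 7388 and 7038 normalized counts in *WT* bleo and 3557, 3579 and 3517 in labelled *Pear1*-/- bleo, 2.04-fold lower (log2 -1.04, SE 0.10, edgeR adjusted p = 1.07e-07), just past the criterion on fold. *Clec5a* was 1.59-fold lower (edgeR adjusted p = 2.43e-05) and *Clec10a* 1.42-fold lower (edgeR adjusted p = 0.00193), both under a fold change of 2 with no overlap of the libraries. *Clec4d* had 295 to 297 normalized counts in *WT* bleo and 312 to 320 in labelled *Pear1*-/- bleo, a log2 difference of 0.08 (SE 0.34, edgeR adjusted p = 0.879). *Clec4e*, like *Clec4d*, was not lower in labelled *Pear1*-/- bleo and did not pass the test. Its 1654 to 1731 normalized counts in labelled *Pear1*-/- bleo lay above the 1107 to 1123 in *WT* bleo, 1.51-fold (log2 0.59, SE 0.29, edgeR adjusted p = 0.129), and without *WT* vehicle replicate 2 in the fit the same log2 difference had an edgeR adjusted p of 6.90e-13, still under a fold change of 2.

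Marker lists differed between the bleo groups too. Of the 15 macrophage and monocyte genes 10 were lower in labelled *Pear1*-/- bleo, with a summed normalized count of 70886 to 73412 against 175890 to 176720 in *WT* bleo, and 2 of the 12 pan-leukocyte genes were lower, *Ptprc* by 1.19 and *Laptm5* by 1.03 on the log2 scale (edgeR adjusted p = 9.33e-10 and 4.18e-08). All 12 had a log2 difference below 0, from -1.19 to -0.44, and their sum was 33452 to 33863 in labelled *Pear1*-/- bleo and 61762 to 62735 in *WT* bleo. Of 8 conventional dendritic cell genes 2 were lower, with a sum of 12316 to 12708 against 25178 to 25419. The fibroblast sum differed the other way, at 289990 to 299550 in labelled *Pear1*-/- bleo and 113120 to 114220 in *WT* bleo, with 3 of 11 genes higher and 1 lower. Of the other lists, 4 of 9 alveolar macrophage genes, 2 of 9 epithelial genes (sum 6435 to 6536 against 14317 to 14537), 1 of 9 T and NK cell genes, 1 of 5 B cell genes and 1 of 5 basophil and mast cell genes were lower, and 1 of 7 endothelial genes was higher. The neutrophil sum was 2674 to 2759 in labelled *Pear1*-/- bleo and 1731 to 1835 in *WT* bleo, with 1 of 10 tested genes called, *Mmp8*, named here after its value was seen (log2 1.31, edgeR adjusted p = 0.00851). The part of these cell types in the differences of the members was not tested.

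To set the members against leukocyte transcripts as a whole, each gene's log2 normalized count, after adding 1, was taken relative to the mean of the 12 pan-leukocyte genes in the same library. From labelled *Pear1*-/- vehicle to labelled *Pear1*-/- bleo, the members that rose were also higher on this scale and *Clec4d* lower, without overlap. The differences were 3.77 for *Clec4n*, 2.84 for *Clec7a* and -1.60 for *Clec4d*. *Clec4e* overlapped, at a difference of -0.11. The share of all genes without overlap was not computed for relative levels. Nothing is read from the number of members apart on them. Each member without overlap had an exact two-sided permutation p of 0.1, the smallest that 3 against 3 libraries allow. After Benjamini-Hochberg adjustment over the 19 tests on this scale it was 0.112, so this design could not pass 0.05. With the macrophage and monocyte genes as the reference the differences of the members that rose were smaller, and those of *Clec4d* and *Clec4e* larger. The median over the 10 was 0.52 in place of 2.08. Relative to those genes *Clec4n* was higher by 2.22, *Clec7a* by 1.28, *Clec10a* by 0.98 and *Clec5a* by 0.95. *Clec4a2* was higher by 0.89, *Clec4a1* by 0.15 and *Clec12a* by 0.11, also without overlap. *Clec4a3* overlapped at 0.037, and *Clec4d* (-3.16) and *Clec4e* (-1.67) were lower without overlap. Between the bleo groups the relative levels split. In labelled *Pear1*-/- bleo, *Clec4a3* (-0.85), *Clec4a1* (-0.83), *Clec12a* (-0.78), *Clec4a2* (-0.70) and *Clec7a* (-0.23) were lower and *Clec4e* (1.40), *Clec4d* (0.89) and *Clec10a* (0.29) higher relative to the pan-leukocyte genes with no overlap, while *Clec5a* (0.13) overlapped. *Clec4n*, described only, had levels relative to the pan-leukocyte genes that overlapped between the bleo groups (0.09 ± 0.017 in labelled *Pear1*-/- bleo and 0.07 ± 0.086 in *WT* bleo, SD, n = 3). The split depended on the reference. With *Ptprc* alone, and also with the macrophage and monocyte genes, *Clec4d*, *Clec4e* and *Clec10a* stayed higher without overlap. *Clec7a* was then higher, by 0.15 and 0.11, as were *Clec5a*, by 0.51 and 0.47, and *Clec4n*, by 0.40 and 0.35, while *Clec4a1*, *Clec4a2*, *Clec4a3* and *Clec12a* were lower with each of the references.

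**Figure D3:**
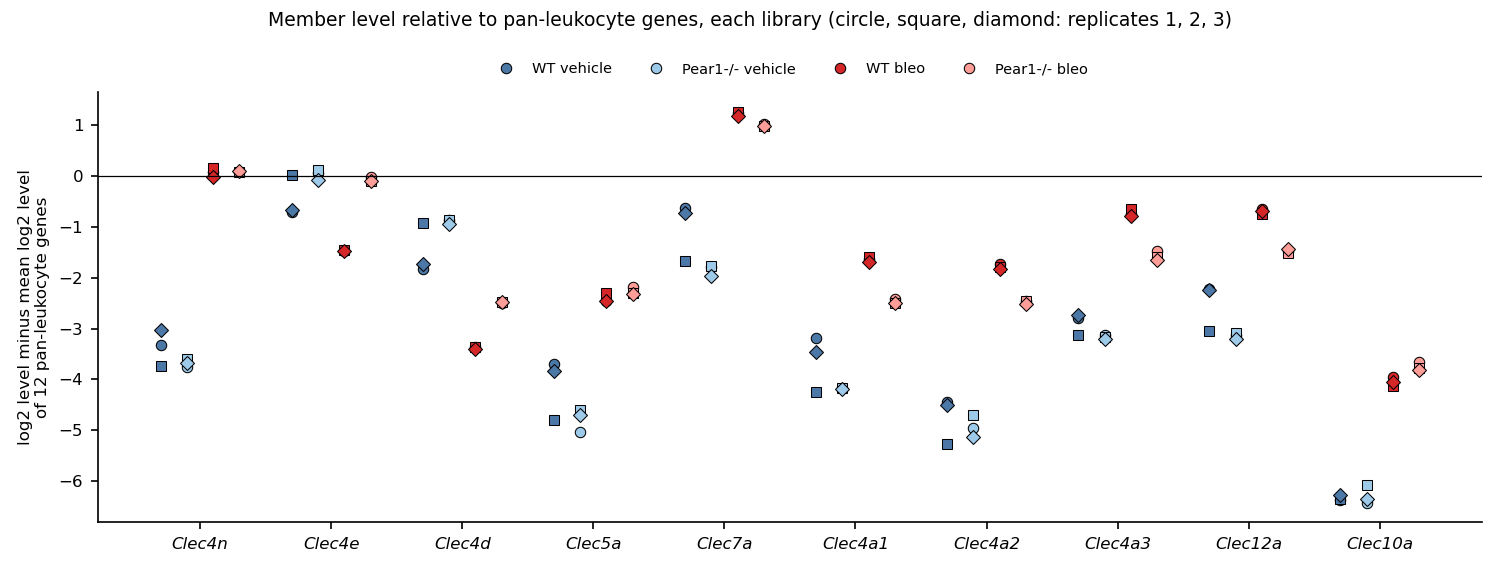
Log2 normalized count of each gene minus the mean log2 normalized count of 12 pan-leukocyte genes (y axis), for each of the 12 libraries. After bleo the *Clec4n* libraries of both labels lie together near 0, whereas the *Clec4a1*, *Clec4a2*, *Clec4a3* and *Clec12a* libraries labelled *Pear1*-/- bleo lie below those of *WT* bleo, and *Clec4d* and *Clec4e* above.

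Between the vehicle groups, which asks what the label *Pear1*-/- went with in the absence of bleo, none of the 9 members tested passed both criteria of edgeR's test, where 3.32% of all genes did, 0.0689% higher and 3.25% lower. At an unadjusted p under 0.05 there were 4 of the 9, where 31.4% of all genes were under it, and DESeq2's Wald test and limma also called none. *Clec7a* had 766, 514 and 694 normalized counts in *WT* vehicle and 475, 481 and 434 in labelled *Pear1*-/- vehicle. Every labelled *Pear1*-/- library was lower (log2 -0.51, SE 0.10, edgeR adjusted p = 0.0292). However, the edgeR adjusted p was between 0.0805 and 0.166 when 1 vehicle library other than *WT* vehicle replicate 2 was left out. Without that replicate the log2 difference of *Clec7a* was -0.66 (edgeR adjusted p = 1.26e-10). *Clec12a* was also lower without overlap (log2 -0.31, SE 0.090, edgeR adjusted p = 0.0474). Its edgeR adjusted p was between 0.105 and 0.254 when 1 vehicle library other than *WT* vehicle replicate 2 was left out. Without that replicate its log2 difference was -0.41 (edgeR adjusted p = 0.000509). Other settings gave *Clec12a* adjusted p from 0.0501 (edgeR, DESeq2 size factors) to 0.230 (edgeR, no filter). For *Clec7a*, limma gave 0.0564 to 0.103 and edgeR on the 6 libraries alone 0.182. DESeq2's Wald test and the other edgeR settings over all 12 libraries kept *Clec7a* under 0.05. *Clec5a* differed by -0.32 (edgeR adjusted p = 0.174) with all libraries and -0.50 (0.0138) without that replicate, and *Clec4a1* by -0.22 (edgeR adjusted p = 0.229) and -0.37 (0.0237). The log2 differences of the members with an adjusted p over 0.05 in both fits were those of *Clec4a2* (0.17, and 0.068 without that replicate), *Clec4a3* (0.05 and 0.092) and *Clec10a* (0.37 and 0.57). By adjusted p alone, 5.29% of all genes were lower. Without overlap, 10.9% were lower and 8.28% higher, *Clec4d* among the latter. *Clec4n*, described only, had 118 to 140 normalized counts in *WT* vehicle and 120 to 134 in labelled *Pear1*-/- vehicle, so the libraries overlapped.

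*Clec4d* and *Clec4e* turned on *WT* vehicle replicate 2. *Clec4d* had 331 and 343 normalized counts in *WT* vehicle replicates 1 and 3, 874 in replicate 2 and 881 to 903 in labelled *Pear1*-/- vehicle. *Clec4e* had 722 and 717 in replicates 1 and 3, 1664 in replicate 2 and 1604 to 1788 in labelled *Pear1*-/- vehicle. Replicate 2 thus had 2.59 times the level of the other 2 *WT* vehicle libraries for *Clec4d* and 2.31 times for *Clec4e*, and between 0.69 and 1.42 times for the other 8 members. With all libraries the log2 difference between the vehicle groups was 0.78 for *Clec4d* (edgeR adjusted p = 0.139) and 0.71 for *Clec4e* (edgeR adjusted p = 0.133). Without replicate 2 these were 1.40 (edgeR adjusted p = 5.17e-19) and 1.24 (edgeR adjusted p = 1.12e-19), and both were then called. In the same fit 2.78% of all genes were called higher and 14.1% either way, against 3.32% either way with all libraries. That fit kept 2 *WT* vehicle libraries, which gave a chi-square per degree of freedom of 1.58 against each other. Its p-values leave out the spread that replicate 2 adds. The neutrophil genes were high in the same library, *S100a8* at 3.14 times, *Cxcr2* at 3.99 times and *Ly6g* at 3.39 times the mean of replicates 1 and 3, and the summed normalized count of the list was 17603 in replicate 2, 5630 to 5748 in the other 2 and 16626 to 20506 in labelled *Pear1*-/- vehicle. Other lists were also higher in replicate 2 than in replicates 1 and 3 and near their level in labelled *Pear1*-/- vehicle. The B cell sum was 6338 against 3635 and 3785, the T and NK cell sum 2977 against 1932 and 1944, and the alveolar macrophage sum 3513 against 2181 and 2214. The pan-leukocyte sum was 28568 against 20138 and 20575, and the epithelial sum 55788 against 38035 and 39777. The part of these cell types in the values of *Clec4d* and *Clec4e* was not tested.

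**Figure D4:**
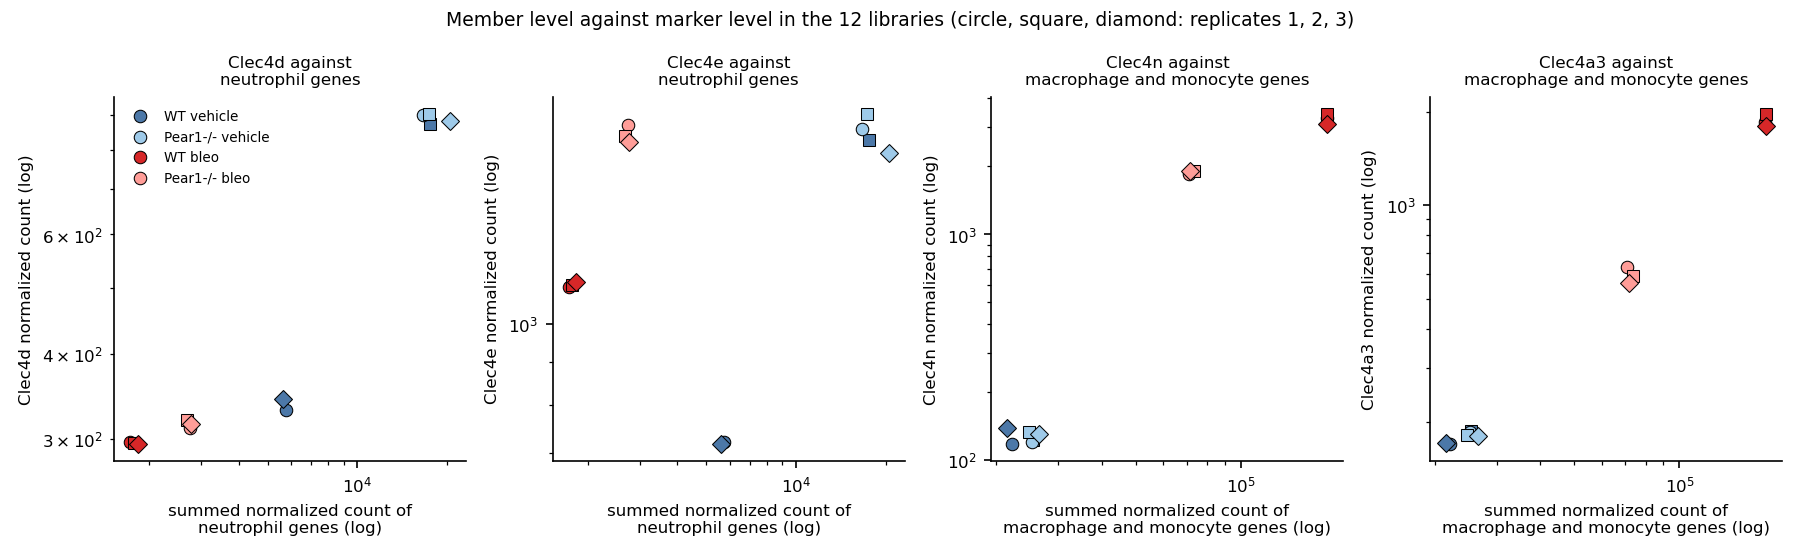
Normalized count of a member (y axis, log scale) against the summed normalized count of a marker list (x axis, log scale) in the 12 libraries. *Clec4d* and *Clec4e* are high in the 4 vehicle libraries with a neutrophil sum of 16626 or more, but *Clec4e* is as high in labelled *Pear1*-/- bleo, where that sum is at most 2759; *Clec4n* and *Clec4a3* are high in the libraries where the macrophage and monocyte sum is high.

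Correlations with marker sums used each member's log2 normalized count, after adding 1, and those between genes used log2 CPM. The 12 libraries share their groups and so are not independent. Over them *Clec4d* had a Pearson r of 0.95 with the log2 neutrophil sum, and *Clec4e* 0.32. Over the 6 vehicle libraries these were 0.99 and 0.98, and an r of similar size with the neutrophil sum was found there for *Clec10a* (0.92), *Clec4a3* (0.91), *Clec7a* (-0.97) and *Clec12a* (-0.98). Over the 12 libraries the other 8 members had an r between -0.96 and -0.86 with the neutrophil sum and between 0.96 and 0.998 with the macrophage and monocyte sum. Among themselves these 8 had an r between 0.93 and 0.998 over their 28 pairs, *Clec4d* and *Clec4e* had 0.50 with each other, and either had between -0.82 and 0.17 with the 8. Over the 10453 genes whose log2 CPM averaged 3 or more, the 5 whose pattern was most like that of *Clec4n* were *Lpl* (lipoprotein lipase), the chemokine *Ccl2*, *Ms4a6d*, the cytokine *Il1b* and *Cfp* (properdin), with a Pearson r between 0.997 and 0.998 over the 12 libraries. By Spearman's rho, 0 of these were among the first 5.

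The difference between the label's bleo effects, described only, was below 0 for all 10 members, from -0.13 for *Clec4e* to -1.71 for *Clec4a3* on the log2 scale. It contains the comparison that led to the choice, so nothing is read from the 4 members past both limits (6 without *WT* vehicle replicate 2), beside 6.98% of all genes lower, 8.53% higher and 15.5% either, or from the 7 past that on adjusted p, beside 19.3% lower. It was -0.81 for *Clec4n*, -1.42 for *Clec4a1*, -1.69 for *Clec4a2* and -1.29 for *Clec12a*. Without *WT* vehicle replicate 2 it was -0.78 for *Clec4n*, -1.28 for *Clec4a1*, -1.58 for *Clec4a2*, -1.76 for *Clec4a3* and -1.18 for *Clec12a*. The same step took *Clec4d* from -0.70 to -1.32, *Clec4e* from -0.13 to -0.65 and *Clec10a* from -0.89 to -1.10, and *Clec5a* from -0.36 to -0.18 and *Clec7a* from -0.53 to -0.38.

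The adaptors and kinases of the pathway were taken as a list of 24 genes, all tested. From labelled *Pear1*-/- vehicle to labelled *Pear1*-/- bleo 3 of them rose and none fell by both criteria of edgeR: *Card9*, the scaffold behind *Syk* (log2 1.64, edgeR adjusted p = 1.45e-06), *Fcer1g*, the adaptor of Dectin-2, MCL and Mincle (log2 1.28, edgeR adjusted p = 5.24e-08), and *Malt1*, named here after its value was seen (log2 1.09, edgeR adjusted p = 7.86e-11). The median over the list was 0.26. *Tyrobp*, which encodes DAP12, differed by 0.99, just under the criterion on fold (edgeR adjusted p = 7.47e-05), and *Syk* by -0.39 (edgeR adjusted p = 0.0202). *Hcst*, which encodes DAP10, differed by -0.80 (edgeR adjusted p = 0.00507), *Prkcd*, the kinase between *Syk* and *Card9*, by 0.72 (edgeR adjusted p = 1.10e-07) and *Rel*, an NF-kB subunit, by -0.43 (edgeR adjusted p = 1.77e-05), all under a fold change of 2. Of the inhibitory phosphatases, *Ptpn6* (SHP-1) differed by 0.82 and *Inpp5d* (SHIP-1) by 0.35, with edgeR adjusted p = 0.00142 and 0.000742. Between the bleo groups 9 of the 24 were lower and none higher in labelled *Pear1*-/- bleo. *Fcer1g* had a mean of 2977 against 7383 normalized counts (log2 -1.32, edgeR adjusted p = 5.45e-08) and *Tyrobp* of 3381 against 7240 (log2 -1.11, edgeR adjusted p = 4.36e-05), and *Rel* was lower by 1.19 on the log2 scale (edgeR adjusted p = 4.09e-11), while *Card9* differed by -0.81 and *Syk* by -0.95, both under a fold change of 2.

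Of 20 cytokines, chemokines and other genes known to be induced through these receptors, 19 were tested, and from labelled *Pear1*-/- vehicle to labelled *Pear1*-/- bleo 4 rose and 1 fell. *Il1b*, an inflammatory cytokine, rose from a mean of 5417 to 17660 normalized counts (log2 1.71, edgeR adjusted p = 1.49e-14) and *Ccl2*, which attracts monocytes, by 1.43 on the log2 scale (edgeR adjusted p = 1.20e-12). *Cxcl2*, which attracts neutrophils, differed by -0.11 (edgeR adjusted p = 0.653) and *Ptgs2*, which encodes cyclooxygenase-2, by -0.06 (edgeR adjusted p = 0.813). Between the bleo groups 4 were lower in labelled *Pear1*-/- bleo and none higher, among them the chemokine gene *Ccl4* with a mean of 3388 against 12787 normalized counts (log2 -1.93, edgeR adjusted p = 8.95e-12). The list held both directions in the first comparison, at a median of -0.06, close to the -0.05 of all genes.

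Other lectins of myeloid cells, 27 genes of which 21 were tested, shared the direction of the 8 members only in part. In labelled *Pear1*-/- bleo against labelled *Pear1*-/- vehicle 5 rose and 6 fell. *Mgl2*, the near copy of *Clec10a*, rose from a mean of 490.0 to 2070 normalized counts (log2 2.08, edgeR adjusted p = 1.30e-14), *Mrc1*, the macrophage mannose receptor, by 2.02 (edgeR adjusted p = 5.13e-14) and *Clec4b1*, a relative of the DCIR genes, by 1.05 (edgeR adjusted p = 1.30e-05). *Clec9a*, a receptor of cross-presenting dendritic cells for dead cells, fell by 1.09 (edgeR adjusted p = 0.000101), and *Cd72*, an inhibitory lectin of B cells and macrophages, rose by 1.86 (edgeR adjusted p = 2.18e-13). *Cd209a* differed by 0.74 and *Cd302* by -0.63 on the log2 scale, under the criterion on fold. Between the bleo groups 9 of the 21 were lower and none higher in labelled *Pear1*-/- bleo, *Mgl2* by 1.31 and *Mrc1* by 1.37 on the log2 scale (edgeR adjusted p = 1.85e-11 and 1.67e-11), at a median of -0.40 over the list.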

How the data were processed

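RNA-seq of CD140a+ mouse lung cells was analysed in 12 libraries. SMART-Seq v4 cDNA was sequenced in pairs and aligned with HISAT2 version 2.1 to GRCm38 (mm10) by the authors, and the counting program was not given in the sources used here. The authors deposited raw counts per gene and, in a second table, the same counts divided by DESeq2 size factors, a normalized signal, both without pooling of replicates. The depth was 6702948 to 10447101 counts, and intervals and floors cover counting error only. The deposited counts were tested with edgeR 4.0.16 (R 4.3.3) with TMM normalization, filterByExpr, 1 mean per group over all 12 libraries, robust quasi-likelihood fits, two-sided, with Benjamini-Hochberg adjustment over 17418 genes, and called at a fold change above 2 and adjusted p under 0.05. Standard errors (SE) are the size of the log2 difference over the square root of F. RPKM used summed exon lengths of GENCODE M21, which held 99.2% of the identifiers. Relative levels used a pseudocount of 1 and an exact permutation test. Alternatives were DESeq2 1.42.0, limma 3.58.1 on variance-stabilized and log2 values (the study's own test was limma on the former), other scaling, no filter, the libraries of a comparison alone, a replicate block and leaving out each library. The members, gene lists and tests were chosen with earlier results of these data known. Named list genes were drawn from the 4 of highest mean count in each list and a fixed set of receptors, adaptors and markers, not all of which are named, and others are said to be chosen after their values were seen.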

Additional observations from a re-analysis of the deposited data

How the results depend on the processing

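The member counts were 9 in labelled *Pear1*-/- bleo against labelled *Pear1*-/- vehicle and 5 between the bleo groups under DESeq2, limma, other size factors, no filter, no robust estimation (added after the data were seen) and the 6 libraries alone, and without any one library. Requiring adjusted p alone gave 7 members between the bleo groups, where 24.0% of all genes were lower, and 2 between the vehicle groups, where 5.29% were. For the difference of bleo effects it gave 7, beside 19.3% of all genes lower, a description from which nothing is read because it contains the comparison that led to the choice. Over all genes, 4825 were called in the first comparison, 2616 between the bleo groups, 578 between the vehicle groups, 5886 in *WT* and 2701 for the difference of effects. Without the filter these were 8045 (first), 2919 (vehicle) and 13891 (*WT*), and with limma on variance-stabilized values 1897, 793, 16, 3001 and 1203 in the order above; the cause was not tested. Between the vehicle groups, limma on log2 values gave 28 and 92 genes with a pseudocount of 1 and 4, the 6 libraries alone gave 0, although 5473 genes had an unadjusted p under 0.05 with all libraries, and leaving out one library gave 0 to 2455, the last without *WT* vehicle replicate 2, which also took the members called from 0 to 2.

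Leaving out one library, the difference of bleo effects ranged from 2398 to 3770 genes (4 to 6 members, a description) and the count in *WT* from 5704 to 6325. Signs near 0 turned: *Clec4e* in the first comparison (0.043 without a filter, 0.0037 in its 6 libraries alone, -0.048 to 0.027 without one library), *Clec4e* in *WT* (-0.087 to 0.64, below 0 at -0.081 and -0.087 without replicate 1 or 3 of *WT* vehicle) and in the difference of effects (-0.65 to 0.079), and *Clec4n* between the vehicle groups (-0.036 to 0.089). Relative to *Ptprc* alone *Clec4e* differed by 0.17 in the first comparison and *Clec7a* by 0.15 between the bleo groups, relative to macrophage genes *Clec7a* by 0.11, and the relative level of *Clec4n* between the bleo groups was -0.028 to 0.058 without one library. None of the 5 genes most like *Clec4n* was shared between Pearson (5) and Spearman (0).

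The libraries' replicate numbers did not pair them: of 18 same-numbered pairs, 0 had a correlation of their deviations over 0.1 (-0.161 to 0.0997), and 3 of 12 libraries correlated best with their own number. A replicate block gave 4824, 2577, 513, 5861 and 2641 genes in the order above, with 9, 5 and 0 members in the first 3 of these comparisons. Depth limits *Clec10a* most, whose vehicle libraries had 11 to 25 counts.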

Other observations

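Lectin genes of stromal, vascular and epithelial cells went another way than the myeloid set. Of 23 such genes 19 were tested, and from labelled *Pear1*-/- vehicle to labelled *Pear1*-/- bleo 1 rose and 8 fell, at a median log2 difference of -0.86. *Clec3b*, which encodes tetranectin, fell from a mean of 1931 to 241 normalized counts (edgeR adjusted p = 2.24e-15), and *Thbd*, which encodes thrombomodulin, by 1.66 on the log2 scale (edgeR adjusted p = 5.55e-14). *Sftpa1*, the surfactant protein A of alveolar epithelium, had a mean of 4719 normalized counts in labelled *Pear1*-/- vehicle and 430.3 in labelled *Pear1*-/- bleo (log2 -3.45, edgeR adjusted p = 1.67e-16). *Colec12*, a scavenger receptor with a collagen stem, differed by -0.12 (edgeR adjusted p = 0.156). *Cd248* (endosialin), a lectin-like protein of stromal cells and the one that rose, did so by 1.13 (edgeR adjusted p = 1.00e-07). Between the bleo groups 2 were higher and 2 lower in labelled *Pear1*-/- bleo, *Cd248* by 1.26 higher (edgeR adjusted p = 4.61e-08).

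Of the other marker lists, in labelled *Pear1*-/- bleo against labelled *Pear1*-/- vehicle, 3 of 9 alveolar macrophage genes rose and 2 fell, 1 of 8 conventional dendritic cell genes rose, 1 of 5 basophil and mast cell genes rose, all 9 T and NK cell genes fell by edgeR's criteria (median -1.65 on the log2 scale), 0 of 5 B cell genes were called (median -0.56), 3 of 7 endothelial genes fell, and 6 of 9 epithelial genes fell and 1 rose. Of 11 fibroblast genes 2 rose, *Col1a1* (log2 2.18, edgeR adjusted p = 1.67e-16) and *Col1a2* (log2 1.53, edgeR adjusted p = 9.88e-15), and 7 fell. *Pdgfra*, the gene of the sorting marker, differed by -0.80 on the log2 scale, under the criterion on fold (edgeR adjusted p = 5.16e-09).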
